A study of Mus musculus with 6 samples.

Results

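Glycolysis splits glucose into pyruvate in the cytosol and yields ATP without oxygen. Haematopoietic stem cells (HSCs) reside in a bone marrow poor in oxygen, and quiescent HSCs are known for relying on glycolysis and for holding pyruvate back from the mitochondria. The hypoxia-inducible factors (HIF) and the MYC family of transcription factors are textbook activators of many glycolytic genes. Here the mRNA of 34 genes that carry glucose into the cell, turn it into pyruvate and lactate, or set the pace of these steps was compared between wild-type (WT) and *Med23*-deficient (KO) HSCs. The genes were taken by symbol from the deposited tables of 34745 genes, and each of the 34 symbols stood in 1 row.

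Libraries were made from bone marrow of adult C57BL/6 mice, 3 WT and 3 KO. WT mice carried floxed *Med23* alleles and no Cre, whereas KO mice carried the same alleles and the *Mx1-cre* transgene, whose interferon-inducible promoter is switched on by poly(I:C) in blood cells and in other tissues as well. The study's methods give poly(I:C) as the inducer and Cre-negative littermates as controls. Neither the labels nor the methods state the exact age, whether the mice of the WT libraries also received poly(I:C), or whether a library came from 1 mouse or from pooled mice, so p-values measure the spread between these libraries. HSCs were sorted as LSK CD150+CD34-CD48- cells, LSK being lineage-negative, Sca1-positive and cKit-positive, and the labels name the SMART-Seq v4 kit for the amplification of the RNA, whereas the methods name the TruSeq kit.

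Counts on genes summed to between 3537269 and 8131344 per library. *Med23* itself was counted at 47.6, 70.8 and 24.1 normalized CPM (library sizes scaled by the TMM method) in WT and at 31.6, 29.8 and 36.8 in KO, here and below in the order of the replicate numbers. The library labelled WT replicate 3 lay below every KO library, so *Med23* goes against its label. *Med23* overlapped between the groups, with a log2 fold change of -0.54 (SE 0.41, edgeR adjusted p = 0.99) and 156 to 182 counts in the KO libraries. At the muscle markers given below, the library labelled WT replicate 3 lay with the other WT libraries. Values of this pathway that move with that library are also given without it. Replicate 3 of both groups also stood apart at 4 Y-linked genes, with a summed count of 1 in WT and 0 in KO, against 1036 or more in the other libraries. *Xist*, which is transcribed from the inactive X chromosome of female cells, was counted at 1489 CPM in WT replicate 3 and 1589 CPM in KO replicate 3, and at 1.62 to 20.2 CPM in the other 4 libraries. By these genes the replicates numbered 3 have a female pattern and the others a male one, and the part of sex in the values below was not tested. *Gm42418* and *Gm26917* were also highest in replicate 3 of each group. *Gm42418* was counted at 37713, 40756 and 89436.5 CPM in WT and at 32500, 28816 and 72234 CPM in KO. *Gm26917* was counted at 36894, 64639 and 108254 CPM in WT and at 26470, 30221 and 52017 CPM in KO. Spearman correlations of WT replicate 3 with the other libraries were 0.8508 to 0.8919, against 0.8858 to 0.9283 among those. The HSC markers *Kit*, *Ly6a*, *Slamf1*, *Procr*, *Mecom*, *Hlf* and *Tek* were counted in every library, with 68 counts or more for each. Among them *Ly6a*, *Hlf* and *Kit* lay lower and *Mecom* higher in KO without overlap, with log2 fold changes of -0.78, -0.81, -0.38 and 0.61 and edgeR adjusted p-values of 0.70, 0.53, 0.91 and 0.77. Markers of skeletal muscle, a tissue rich in glycolytic enzymes, moved with the groups: 22 such genes summed to 298.9, 208 and 523 CPM in WT and to 14.6, 43.7 and 14.2 CPM in KO, and 11 of them, *Myh3* and *Actc1* included, had no count in any KO library. Of the 18 that were tested, 3 passed the test, all lower in KO. Their part in the values below was not tested. In bulk libraries fewer cells of a type and less RNA per cell cannot be told apart.

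No glycolytic gene passed the test between KO and WT. All 34 were retained by the filter on low counts, and edgeR's quasi-likelihood test called 0 of them at a Benjamini-Hochberg adjusted p of 0.05, where it called 9 of all 12513 genes tested (0.0719%). The smallest adjusted p among the 34 was 0.70. DESeq2 called 0 of them as well, with 149 of 15342 genes called (0.971%). At an unadjusted p under 0.05, edgeR counted 2 of the 34, *Pgam1* and *Aldoc*, against 5.71% of all genes. Estimates were higher in KO for 16 genes and lower for 18, with a median log2 fold change of -0.06, where the median of all genes was -0.0054. The median size of the change, whichever its sign, was 0.23 on the log2 scale for these genes and 0.30 for all genes. This comparison was not matched for level, and 23 of the 34 genes reached the median FPKM of the genes tested. Leaving out the library labelled WT replicate 3 moved the estimate of 17 genes by over 1.5 times or turned its sign, the latter for *Slc2a3* and *Pfkp*.

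**Figure D1:**
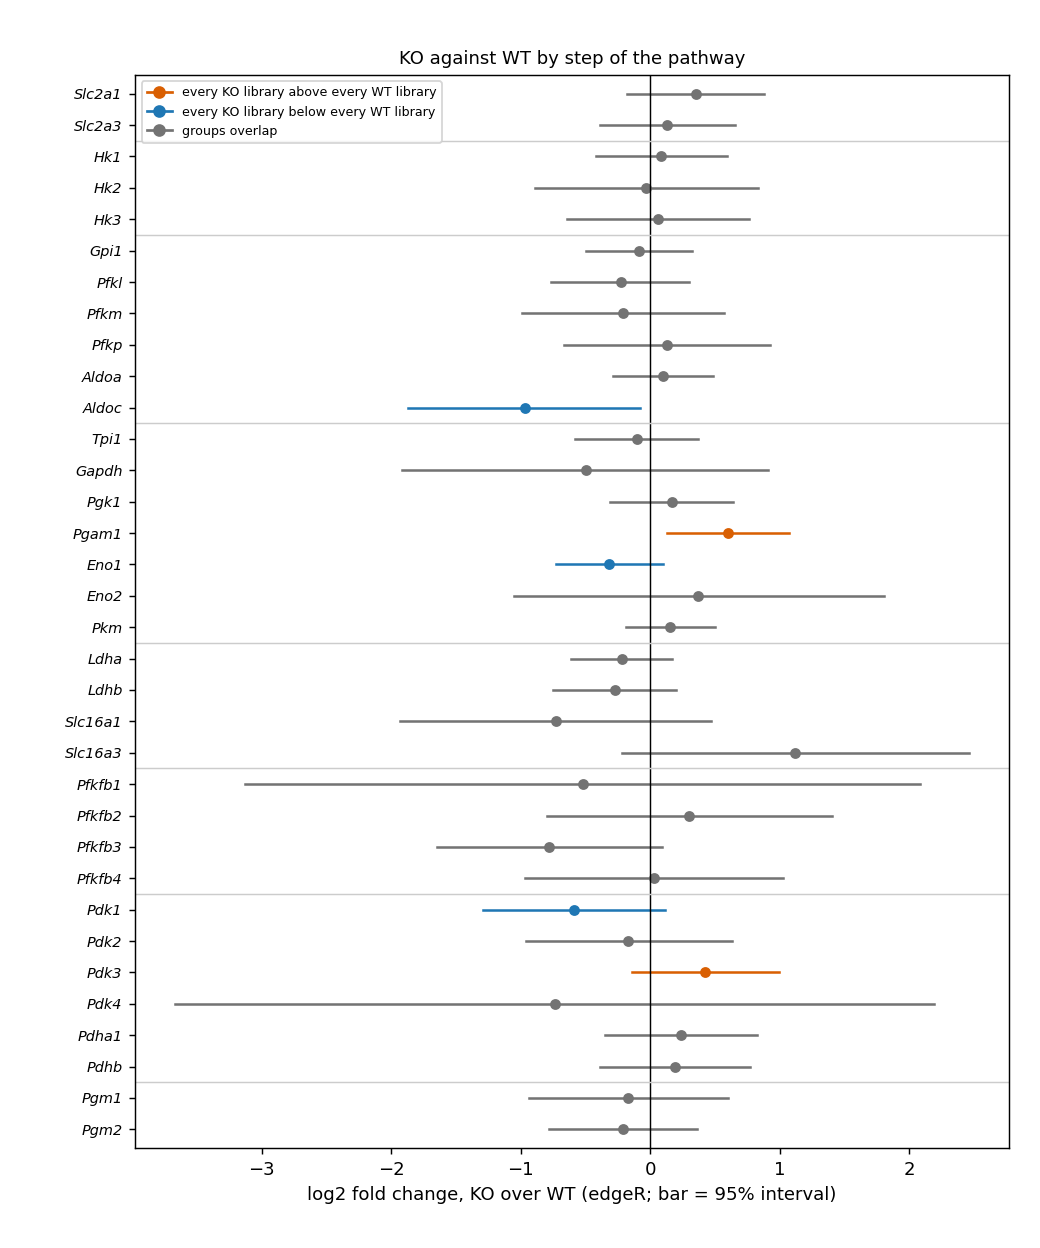
log2 fold changes of KO over WT from edgeR (points) with 95% intervals (bars) for the 34 genes, ordered by step of the pathway; orange and blue mark genes whose 3 KO libraries all lie above or below the 3 WT libraries. Most points sit within 0.5 of 0, and only the intervals of *Pgam1* and *Aldoc* leave out 0.

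These libraries set a limit to how large a difference could have been missed. For 22 of the 34 genes the whole 95% interval lay within 1 log2 unit of 0. This was the case for 32.2% of all genes tested, which were not matched for level. The estimate was under 0.5 in size for 25 genes and past 1 for 1 gene, *Slc16a3*. Wide intervals belonged to genes with few counts, such as *Pdk4*, with 0 to 26 counts per library and an interval from -3.67 to 2.19, and *Pfkfb1*, with 2 to 72 counts and an interval from -3.13 to 2.08. At least 100 counts in every library were reached by 24 of the 34 genes.

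The summed level of the pathway overlapped between the groups. The 34 genes summed to 7726, 6895 and 6820 normalized CPM in WT and to 6974, 7212 and 7042 CPM in KO, and the KO libraries lay inside the range of the WT libraries. Together *Pkm*, *Ldha* and *Aldoa* took between 44.4 and 47.0% of the counts on the 34 genes. Replicates of these genes varied with a median coefficient of variation of 21.3% in WT and 20.9% in KO. Over all genes tested, not matched for level, it was 33.1 and 28.1%.

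**Figure D2:**
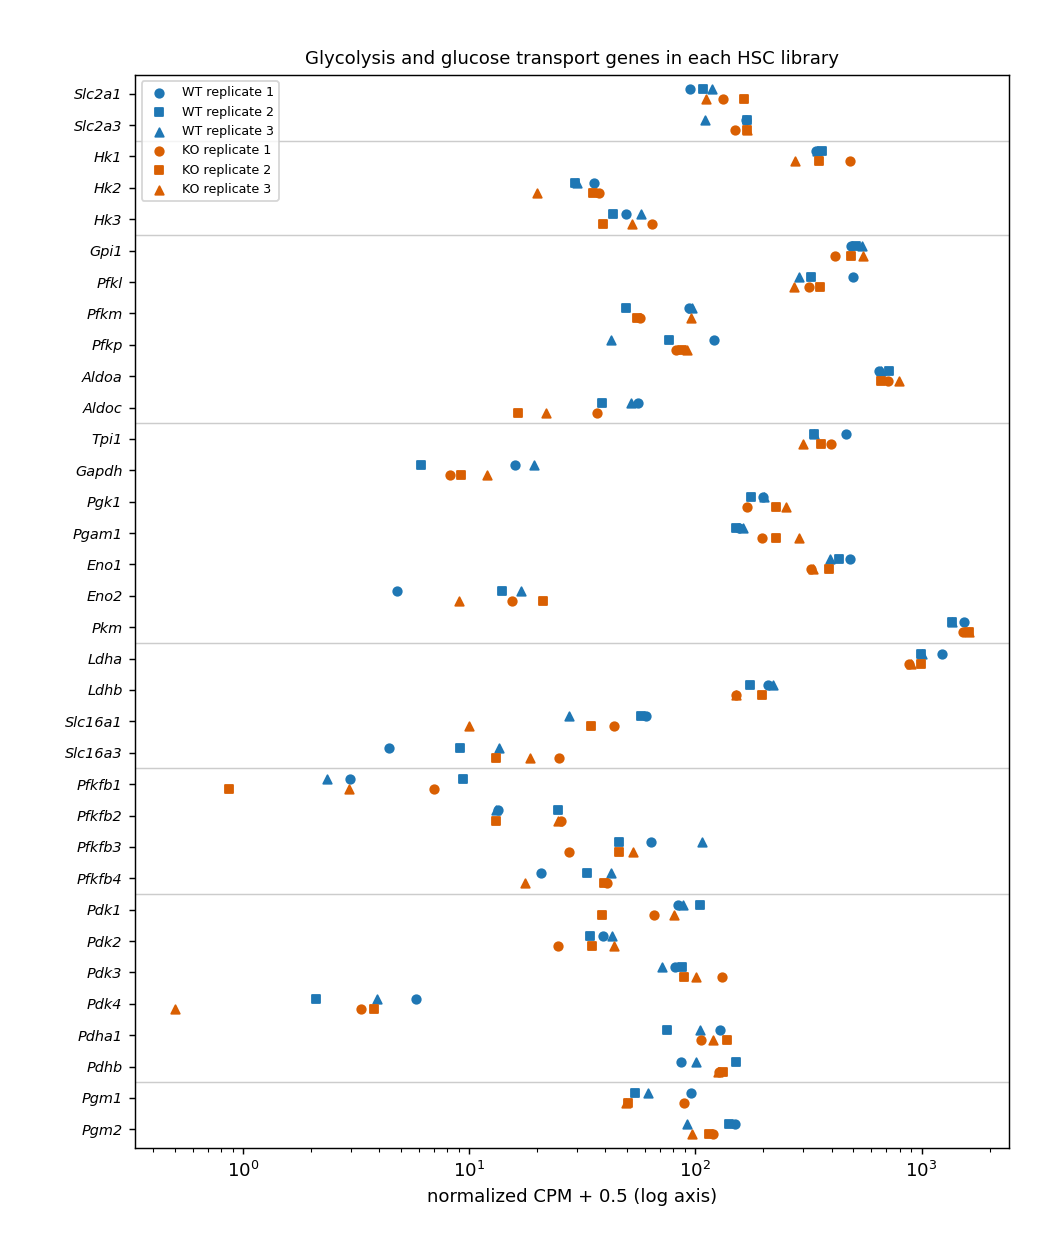
Normalized CPM (plus 0.5, log axis) of each gene in each of the 6 libraries, blue for WT and orange for KO, with a marker shape per replicate number; lines part the steps of the pathway. The most counted genes are *Pkm* and *Ldha*, and blue and orange points overlap in all but 5 genes: *Aldoc*, *Pgam1*, *Eno1*, *Pdk1* and *Pdk3*.

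The 3 KO libraries lay above all WT libraries for 2 genes, *Pgam1* and *Pdk3* (6.25% of all genes did so), and below all of them for 3 genes, *Aldoc*, *Eno1* and *Pdk1* (6.15% of all genes). With 34 genes, both counts are near the background. HIF binds the core letters ACGTG or GCGTG. The stretches before the start sites of these 5 genes are therefore shown, with that of *Ldha*, which is among the most counted genes. Each is the 250 bases before a RefSeq start site (GRCm38.p6), 5′ to 3′ on the gene's strand, with capitals where either core was found on either strand. The letters CACGTG, an E-box that MYC proteins bind, hold ACGTG on both strands.

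Pgam1, chr19:41911621-41911870, plus strand: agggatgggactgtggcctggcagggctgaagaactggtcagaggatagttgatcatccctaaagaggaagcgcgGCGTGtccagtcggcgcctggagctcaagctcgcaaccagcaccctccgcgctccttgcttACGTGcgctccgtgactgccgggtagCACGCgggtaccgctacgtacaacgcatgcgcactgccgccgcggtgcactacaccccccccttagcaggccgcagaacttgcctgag
Pdk3, chrX:93832151-93832400, minus strand: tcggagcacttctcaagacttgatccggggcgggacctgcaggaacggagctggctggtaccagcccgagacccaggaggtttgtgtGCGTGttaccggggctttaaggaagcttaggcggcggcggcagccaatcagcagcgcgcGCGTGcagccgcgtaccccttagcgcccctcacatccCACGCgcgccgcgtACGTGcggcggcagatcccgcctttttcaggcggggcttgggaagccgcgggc
Aldoc, chr11:78322823-78323072, plus strand: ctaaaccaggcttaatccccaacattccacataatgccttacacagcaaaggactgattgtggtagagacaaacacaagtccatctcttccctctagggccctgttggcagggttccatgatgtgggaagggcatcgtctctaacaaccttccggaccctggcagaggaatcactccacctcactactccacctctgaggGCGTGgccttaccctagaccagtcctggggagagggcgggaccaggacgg
Eno1, chr4:150236458-150236707, plus strand: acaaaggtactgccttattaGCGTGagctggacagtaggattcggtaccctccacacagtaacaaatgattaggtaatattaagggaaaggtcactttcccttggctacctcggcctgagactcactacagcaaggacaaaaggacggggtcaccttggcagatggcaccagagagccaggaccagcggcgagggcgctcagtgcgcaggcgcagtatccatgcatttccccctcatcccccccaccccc
Pdk1, chr2:71872974-71873223, plus strand: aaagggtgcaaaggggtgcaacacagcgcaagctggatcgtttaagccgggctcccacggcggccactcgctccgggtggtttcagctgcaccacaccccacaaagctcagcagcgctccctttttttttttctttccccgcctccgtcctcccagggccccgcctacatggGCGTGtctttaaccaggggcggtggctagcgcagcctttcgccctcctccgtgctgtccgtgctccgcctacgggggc
Ldha, chr7:46845554-46845803, plus strand: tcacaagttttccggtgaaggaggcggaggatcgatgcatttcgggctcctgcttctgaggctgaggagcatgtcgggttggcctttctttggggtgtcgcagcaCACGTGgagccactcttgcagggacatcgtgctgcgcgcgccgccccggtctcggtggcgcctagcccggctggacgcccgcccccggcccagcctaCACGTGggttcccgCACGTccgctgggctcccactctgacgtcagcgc

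*Ldha* held 5 core matches in this stretch, 4 of which came from 2 copies of CACGTG. *Pdk3* held 4, *Pgam1* held 3, and *Aldoc*, *Eno1* and *Pdk1* held 1 each, so genes with higher and with lower estimates in KO all had the letters. These numbers depend on the cut and the start site. With 50 bases past the start added, *Ldha* held 7, *Aldoc* 3, and *Eno1* and *Pdk1* 2 each. Before the further start sites, not shown, *Eno1* held 2 each, *Ldha* and *Aldoc* 1 each and *Pdk1* 0. In the full 300-base windows of the RefSeq table, which reach 50 bases past the start, 33 of the 34 genes were matched and 30 of them (90.9%) held a core in at least 1 window. Of the genes tested in the HSCs, 9152 were matched by symbol and 68.1% held one, and over all 27025 genes listed there the share was 46.7%. Genes with several start sites have several windows, and per window the share was 76.9% of 52 for the pathway and 62% of 11678 for the tested genes. CACGTG was found for 6 of the 33 genes (18.2%), against 11.9% of the tested genes and 8.09% of all genes, and per window in 11.5% against 10% of the tested genes. The median GC content of the windows was 60.5% for the pathway and 60.7% for the tested genes. A match is a string of letters, and no binding was measured.

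Glucose enters through the facilitative transporters. *Slc2a1*, which encodes GLUT1, was counted at 94.1, 107 and 118 CPM in WT and at 132, 164 and 111 CPM in KO. KO replicates 1 and 2 were above every WT library, and KO replicate 3 lay among them. KO exceeded WT by a log2 fold change of 0.35 (SE 0.24, 95% interval -0.18 to 0.88, edgeR adjusted p = 0.99). With the library labelled WT replicate 3 left out it was 0.43, and all KO libraries were then above WT. *Slc2a3*, which encodes the high-affinity GLUT3, stood at 149 ± 34 CPM in WT and 163 ± 11.1 CPM in KO (SD, n = 3), a log2 difference of 0.13 that turned to -0.05 (SE 0.21) without the library labelled WT replicate 3. On the FPKM scale, per gene length, *Slc2a1* made up 54.0 to 69.2% of the sum of both transporters, with WT and KO intermixed.

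Hexokinases trap glucose as glucose-6-phosphate. *Hk1* was the main form, counted at 339.5, 362 and 346 CPM in WT and at 481, 353 and 276 CPM in KO. The KO libraries spread to both sides of the narrow WT range, and the log2 fold change was 0.08 (SE 0.23, interval -0.42 to 0.59). *Hk2*, the form most readily induced by hypoxia, averaged 31.1 ± 3.48 CPM in WT and 30.4 ± 9.56 CPM in KO. *Hk3*, found mainly in myeloid cells, averaged 49.4 ± 7.13 and 51.5 ± 12.5 CPM. Their log2 differences were -0.03 and 0.06, or -0.07 and 0.17 without the library labelled WT replicate 3. Per length, *Hk1* supplied 66.2 to 72.4% of hexokinase FPKM, *Hk3* 15.8 to 25.4% and *Hk2* 8.42 to 12.8%, so this order held in all 6 libraries.

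The next steps rearrange the sugar, phosphorylate it again at the committed step and split it. *Gpi1*, the isomerase, averaged 515.5 ± 26.9 CPM in WT and 484.5 ± 67.8 CPM in KO (log2 difference -0.09, interval -0.50 to 0.32, and -0.05 without the library labelled WT replicate 3). Phosphofructokinase mRNA came mainly from the liver-type gene *Pfkl*, at 58.4 to 74.4% of the summed FPKM. The muscle-type gene *Pfkm* supplied 18.5 to 34.3% and the platelet-type gene *Pfkp* 3.70 to 7.14% in WT and 7.42 to 8.04% in KO, without overlap. Replicate 3 of both groups held the highest *Pfkm* shares, 34.3 and 33.5%, and the other libraries 22% or less. In CPM, all 3 genes overlapped between groups, with log2 differences of -0.23, -0.21 and 0.13. In the fit lacking the library labelled WT replicate 3 these were -0.39, -0.05 and -0.18, so the estimate of *Pfkp* turned its sign.

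*Aldoa*, the main aldolase, was counted at 651, 716 and 660 CPM in WT and at 709, 659.5 and 798 CPM in KO. These ranges overlapped, and the log2 fold change was 0.10 (SE 0.17, interval -0.29 to 0.48). *Aldoc* (ENSMUSG00000017390, chr11:78322968-78327781), the aldolase best known from brain, was counted at 55.4, 38.0 and 51.3 CPM in WT and at 36.1, 16 and 21.4 CPM in KO. Every KO library was below every WT library, though KO replicate 1 was just under WT replicate 2. Its log2 fold change of -0.97 (SE 0.40, interval -1.87 to -0.08) had an unadjusted p of 0.035 and an adjusted p of 0.80 in edgeR, and the exact permutation test gave 0.10, the smallest value that 3 libraries against 3 allow. Leaving out the library labelled WT replicate 3 gave -0.93. *Aldoc* supplied 5.35 to 8.30% of aldolase FPKM in WT and 2.52 to 5.14% in KO.

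The ATP and NADH that glycolysis yields come from steps after the triose phosphates are formed, though not from every such step. *Tpi1*, which interconverts the trioses, averaged 377 ± 74.6 CPM in WT and 351 ± 49.7 CPM in KO, and *Pgk1*, the first ATP-yielding kinase, averaged 192 ± 14.4 and 215.5 ± 41.7 CPM. Their log2 differences were -0.10 and 0.17, and -0.18 and 0.20 without the library labelled WT replicate 3. *Pgam1* (ENSMUSG00000011752, chr19:41911923-41918660), a phosphoglycerate mutase, was counted at 156, 151 and 163 CPM in WT and at 197.5, 227 and 288 CPM in KO. The WT libraries lay close together, and all KO libraries were above them. The log2 fold change was 0.60 (SE 0.21, interval 0.13 to 1.07), with an unadjusted p of 0.017 and an adjusted p of 0.70 in edgeR and with p = 0.10 in the exact permutation test. In the fit lacking the library labelled WT replicate 3 it was 0.63.

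Of the 50-base windows of the *Pgam1* transcript, 41.5% also occur in transcripts of other genes, chiefly the pseudogene *Pgam1-ps2*. That pseudogene was counted at 41.2, 35.3 and 57.5 CPM in WT and at 45.4, 55.5 and 78.5 CPM in KO, and its own log2 difference was 0.43 (adjusted p = 0.99). Reads can be divided between the pair in a way the counts do not show. Summed over *Pgam1* and its pseudogenes in the table, the level was 197, 186 and 220 CPM in WT and 243, 282 and 367 CPM in KO, and the groups again did not overlap.

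*Eno1* (ENSMUSG00000063524, chr4:150236721-150248879), the main enolase, was counted at 481, 430 and 394 CPM in WT and at 325, 391 and 332 CPM in KO. The highest KO library stood just under the lowest WT library, the one labelled WT replicate 3. Its log2 fold change was -0.32 (SE 0.19, interval -0.73 to 0.10, edgeR adjusted p = 0.96). In FPKM, scaled by column totals alone, and in CPM scaled with no filter on low counts, *Eno1* overlapped between the groups. Without the library labelled WT replicate 3 its log2 fold change was -0.38 (SE 0.20). *Eno2*, the neuronal enolase, took 0.544 to 3.14% of enolase FPKM and averaged 11.4 ± 6.31 CPM in WT and 14.7 ± 6.13 CPM in KO, a log2 difference of 0.37 that became 0.72 (SE 0.71) without the library labelled WT replicate 3. *Pkm*, which forms pyruvate and has 2 splice forms that counts per gene do not separate, was counted at 1542, 1368 and 1370.0 CPM in WT and at 1526, 1623 and 1613 CPM in KO. WT replicate 1 lay among the KO libraries, and the log2 fold change was 0.15 (SE 0.16, interval -0.19 to 0.50).

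*Gapdh* (ENSMUSG00000057666, chr6:125161715-125166467), chosen for description after its values were seen, was counted far lower than its neighbours in the pathway. It had 75, 46 and 61 counts in WT and 38, 48 and 57 counts in KO, or 0.656 to 2.00 FPKM, whereas *Tpi1* and *Pgk1* on either side of it reached at least 72.7 and 57.6 FPKM in every library. Its mRNA is normally among the most abundant in mammalian cells, and the study used it as the internal control of its quantitative PCR. The mouse genome holds many processed copies of this gene. Of the 1224 windows of 50 bases in its main transcript, 1107 (90.4%) also occur in transcripts of 222 other genes, 213 of them annotated as pseudogenes. The window held by the most other genes, 84, lies in the coding sequence from base 507 to base 556 of the transcript, in the GENCODE M21 sequence:

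Gapdh coding window: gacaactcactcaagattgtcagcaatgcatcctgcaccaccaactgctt

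Of the 213 pseudogenes, 10 stood in the deposited table, 7 of them with a count, and reads on them numbered 64, 168 and 71 in WT and 61, 56 and 61 in KO. *Eno1* and *Pgk1*, which were among the well counted genes, shared 72.2 and 68% of their windows. They shared them with 9 and 5 other genes, where *Gapdh* shared with 222. The fate of reads with several equal matches is not given in the sources used here, and the part of shared sequence in the low *Gapdh* counts was not tested. *Gapdh* was lower in KO by estimate (log2 fold change -0.50, SE 0.64, interval -1.92 to 0.91), and at this depth that interval is among the widest of the pathway. Without the library labelled WT replicate 3 the log2 fold change was -0.17 (SE 0.71).

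**Figure D3:**
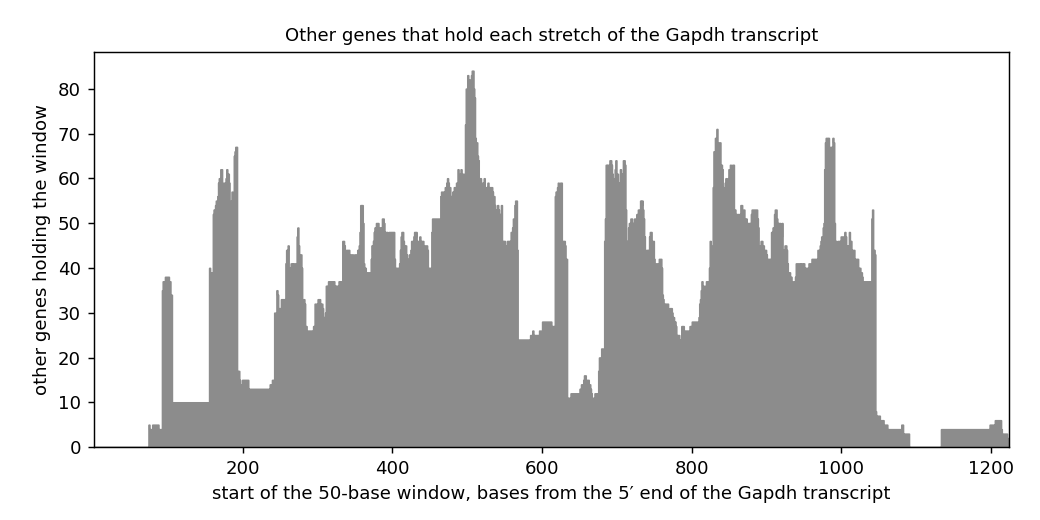
Number of other genes whose annotated transcripts hold each 50-base window of the main *Gapdh* transcript, by the position of the window's first base from the 5′ end. Of the 1224 windows, 953 are held by at least 10 other genes, with a peak of 84 at base 507.

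**Figure D4:**
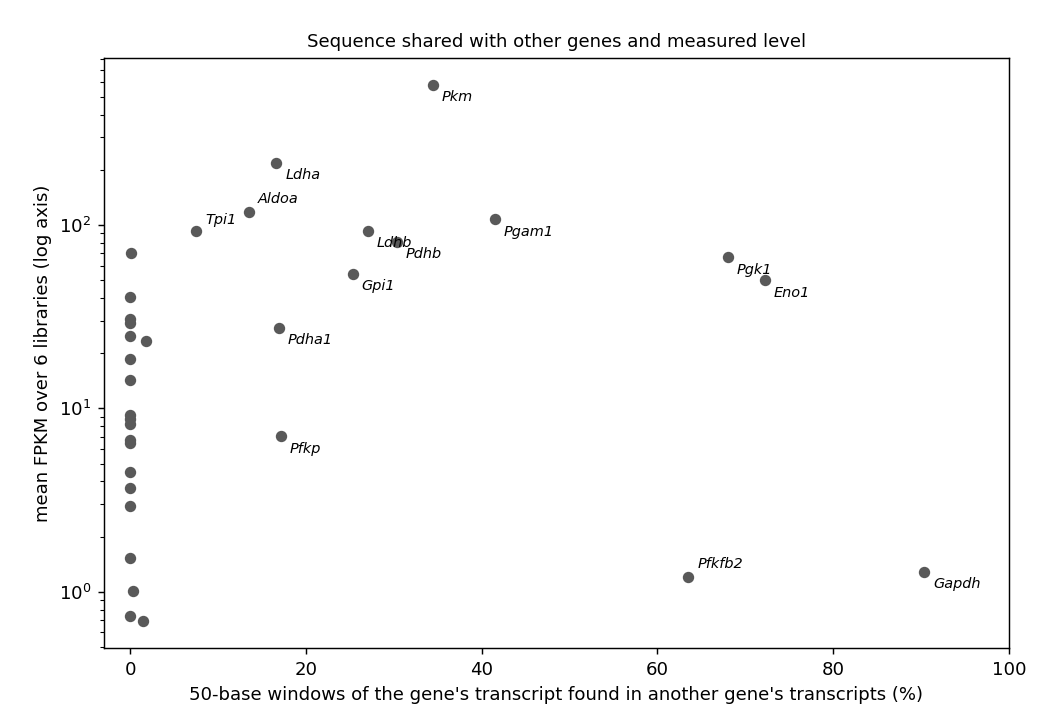
Share of the 50-base windows of each gene's main transcript that occur in another gene's transcripts (x axis, %) against its mean FPKM over the 6 libraries (y axis, log scale), 1 point per gene. *Gapdh* stands at 90.4% and 1.29 FPKM, and *Eno1* and *Pgk1* combine 72.2 and 68.0% with 49.8 and 66.5 FPKM.

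Lactate dehydrogenase regenerates the NAD that glycolysis needs, and monocarboxylate transporters carry the lactate out. *Ldha*, whose promoter stretch is shown above, was counted at 1234, 992 and 1002 CPM in WT and at 878, 997.5 and 896 CPM in KO. KO replicate 2 lay among the WT libraries, and the other KO libraries were below them. Its log2 fold change was -0.22 (SE 0.17, interval -0.61 to 0.17, edgeR adjusted p = 0.99). *Ldhb*, the heart-type subunit, averaged 201 ± 23.9 CPM in WT and 166 ± 26.3 CPM in KO, a log2 difference of -0.27. Per length, *Ldha* made up 66.2 to 71.9% of the FPKM of both subunits, with WT and KO intermixed.

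*Slc16a3*, which encodes the lactate exporter MCT4, was counted at 3.90, 8.60 and 13 CPM in WT and at 24.5, 12.7 and 18.0 CPM in KO. KO replicate 2 overlapped the library labelled WT replicate 3, and the other WT libraries lay lower than any KO library. In FPKM the groups did not overlap, with 0.457, 0.984 and 1.36 FPKM in WT and 2.90, 1.51 and 1.98 FPKM in KO. FPKM are scaled by column totals alone, which include the *Gm42418* and *Gm26917* counts. In CPM scaled with no filter on low counts, *Slc16a3* did not overlap either. The log2 fold change of 1.12 (SE 0.60, interval -0.22 to 2.46) was the highest of the 34 genes and had an unadjusted p of 0.092 (edgeR adjusted p = 0.93). Leaving out the library labelled WT replicate 3 gave 1.55 (SE 0.64), with an edgeR adjusted p of 0.68. *Slc16a1*, which encodes MCT1, went the other way by estimate, at 60.1, 56.9 and 27.2 CPM in WT and 43.4, 34.2 and 9.51 CPM in KO (log2 difference -0.73, interval -1.93 to 0.47). Replicate 3 was the lowest library of both groups. Without the library labelled WT replicate 3 the log2 difference was -1.01 (SE 0.54), and all KO libraries were then below WT. *Slc16a3* made up 3.18 to 19.4% of the summed FPKM of both transporters in WT and 15.8 to 48.9% in KO. *Bsg*, the chaperone that brings these transporters to the membrane, averaged 444 CPM in WT and 442.0 CPM in KO.

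The PFKFB enzymes make and remove fructose-2,6-bisphosphate, the strongest activator of phosphofructokinase. *Pfkfb4* had the highest mean FPKM of the family, though the leading form in FPKM changed between libraries. With merged exons in GENCODE M21 as the length, *Pfkfb3* led instead, at 7.5 against 6.52 CPM per kb. *Pfkfb4* was counted at 20.3, 32.6 and 41.7 CPM in WT and at 40.1, 38.8 and 17.2 CPM in KO. The groups covered the same range, and the log2 fold change was 0.03 (SE 0.45, interval -0.97 to 1.02), or 0.27 without the library labelled WT replicate 3. *Pfkfb3*, the form with the highest kinase activity, was counted at 63.4, 45.3 and 106.6 CPM in WT and at 27.1, 45.3 and 52.6 CPM in KO, a log2 difference of -0.78 (interval -1.65 to 0.09, unadjusted p = 0.075). Its highest value came from the library labelled WT replicate 3, without which the log2 difference was -0.38. *Pfkfb2* averaged 16.6 ± 6.59 CPM in WT and 20.6 ± 6.80 CPM in KO, and 63.5% of its windows also belong to the annotated gene *Gm29427*, with which it overlaps. *Pfkfb1*, the liver form, averaged 4.39 ± 3.87 and 3.09 ± 3.11 CPM. Their log2 differences were 0.30 and -0.52, and 0.14 and -0.88 without the library labelled WT replicate 3.

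The pyruvate dehydrogenase kinases (PDK) shut the gate between glycolysis and the citric acid cycle by phosphorylating pyruvate dehydrogenase. *Pdk1* (ENSMUSG00000006494, chr2:71873224-71903858) was counted at 83.0, 104 and 88.1 CPM in WT and at 65.4, 38.0 and 79.9 CPM in KO. Every KO library was below every WT library, KO replicate 3 closely so. The log2 fold change was -0.59 (SE 0.32, interval -1.29 to 0.11, unadjusted p = 0.091, edgeR adjusted p = 0.93). *Pdk3* (ENSMUSG00000035232, chrX:93764607-93832201), which lies on the X chromosome, was counted at 80.6, 87.0 and 70.5 CPM in WT and at 131, 88.4 and 101 CPM in KO. All KO libraries were above WT, KO replicate 2 by little. Its log2 fold change was 0.42 (SE 0.26, interval -0.14 to 0.99, unadjusted p = 0.13, edgeR adjusted p = 0.97). Leaving out the library labelled WT replicate 3 gave log2 fold changes of -0.62 for *Pdk1* and 0.35 for *Pdk3*.

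The make-up of the family was examined after these values were seen. *Pdk3* took 58.8, 61.1 and 54.3% of the summed PDK FPKM in WT and 77.3, 69.1 and 64.6% in KO. *Pdk1* took 16.3, 19.7 and 18.3% in WT and 10.4, 7.99 and 13.8% in KO. These shares did not overlap between groups. They are built from the same counts, in which *Pdk1* and *Pdk3* already parted in opposite directions, and are no separate result. *Pdk3* was the main kinase in all 6 libraries. *Pdk2* took 11.1 to 25.4% and averaged 38.1 ± 4.41 CPM in WT and 33.9 ± 9.61 CPM in KO, a log2 difference of -0.17, or -0.09 without the library labelled WT replicate 3. *Pdk4*, which responds to fasting and fatty acids, took at most 2.97%, with no count in KO replicate 3, where 3 counts would be 0.607 CPM.

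**Figure D5:**
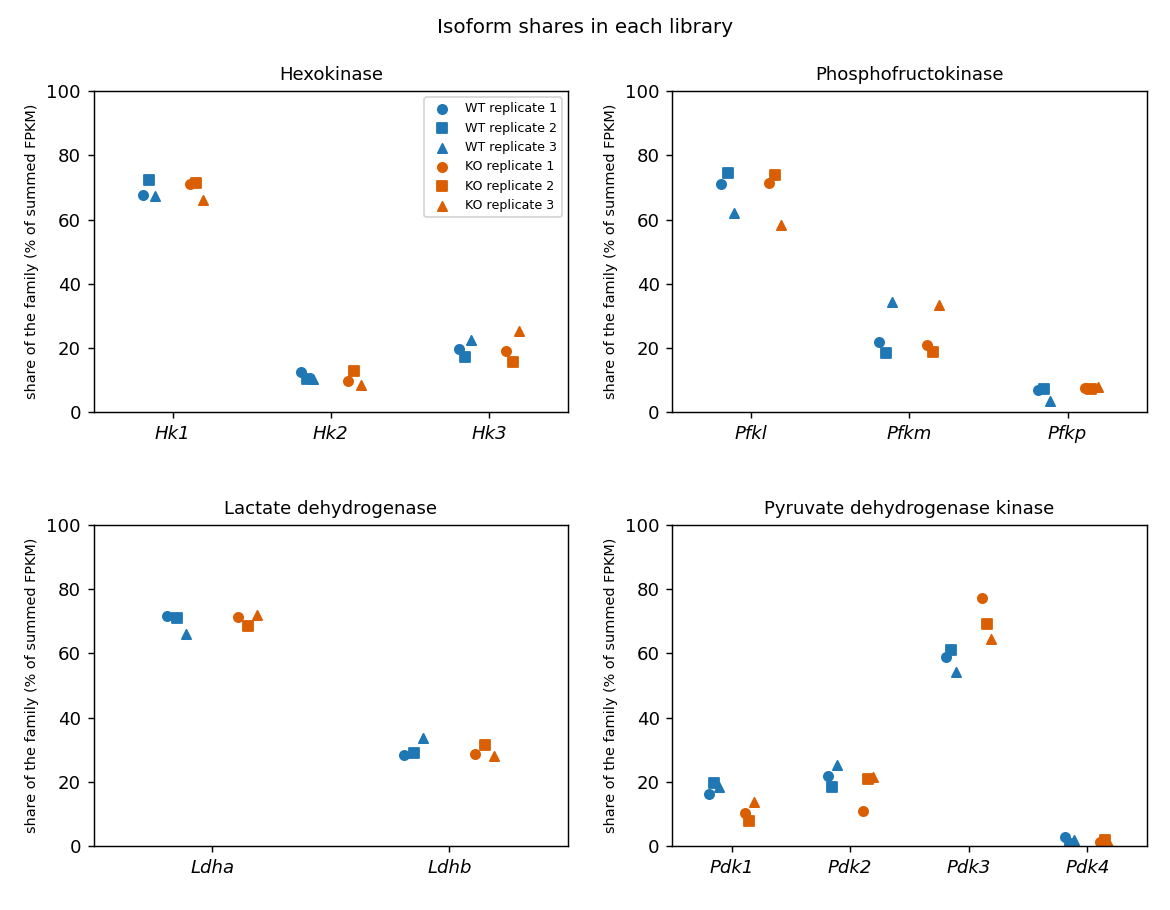
Share of each isoform in the summed FPKM of its family (y axis, %) in each library, for hexokinase, phosphofructokinase, lactate dehydrogenase and PDK; blue is WT, orange is KO, and the marker gives the replicate number. *Hk1*, *Pfkl*, *Ldha* and *Pdk3* lead their families in all 6 libraries, and blue and orange part for *Pdk1*, *Pdk3* and, by little, *Pfkp*.

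The dehydrogenase that these kinases act on was counted in every library. *Pdhb*, its beta subunit, was counted at 85.5, 151 and 100.1 CPM in WT and at 127, 132.5 and 125 CPM in KO. The WT libraries spread to both sides of the KO libraries, and the log2 fold change was 0.19 (SE 0.26, interval -0.39 to 0.77). It was 0.47 without WT replicate 2, 0.03 without WT replicate 1 and 0.11 without the library labelled WT replicate 3. *Pdha1*, the alpha subunit, averaged 103 ± 26.9 CPM in WT and 121 ± 16.3 CPM in KO, a log2 difference of 0.24. Phosphoglucomutases link the pathway to glycogen. The table's *Pgm2* (ENSMUSG00000025791, named *Pgm1* in GENCODE M21) was counted at 149.9, 139.7 and 90.9 CPM in WT and at 119, 114 and 96.1 CPM in KO, with a log2 fold change of -0.21 (SE 0.26, interval -0.78 to 0.36). The lowest value came from the library labelled WT replicate 3, without which the log2 fold change was -0.40 (SE 0.23) and all KO libraries were below WT, whereas it was -0.07 without WT replicate 1. The table's *Pgm1* (ENSMUSG00000029171, named *Pgm2* in GENCODE M21) averaged 70.2 ± 22 and 62.4 ± 22.6 CPM. Both symbols have been swapped between annotations, so the identifiers and not the symbols tell them apart.

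Between genes, levels can be compared only per length, and there the choice of length counts. In the deposited FPKM, *Pkm* came first with 482 to 650 FPKM, above 99.8% of the genes tested, and *Ldha* followed with 188 to 276 FPKM. Then came *Aldoa* (mean 118 FPKM), *Pgam1* (107 FPKM), *Ldhb* (92.8 FPKM) and *Tpi1* (92.3 FPKM), and these 4 overlapped in their ranges over libraries. The median FPKM of the genes tested was 6.72, and 23 of the 34 genes reached it. The length that the FPKM imply differs from the merged exons in GENCODE M21, by a ratio of 0.52 for *Pkm*, 1.39 for *Ldha* and 0.385 for *Pdhb*. With merged exons in its place, the mean level of *Pkm* was 0.997 times that of *Ldha*, against 2.66 times in FPKM. Of the first 10 genes, 9 were the same under both lengths, and a gene moved by at most 8 places. These ratios are constant over libraries and leave every comparison of KO with WT as it was.

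Around the pathway, 121 other genes from 6 lists were found in the table and 102 were tested. edgeR called 0 of them, DESeq2 called 0, and 9 had an unadjusted p under 0.05 in edgeR, 5 higher and 4 lower in KO (5.71% of all genes did). Their median log2 fold change was -0.01, and 8 were higher and 6 lower in KO without overlap, where 6.25% and 6.15% of all genes were, so both counts are near the background. Of 40 other isoforms and genes of pyruvate entry, 26 were tested, with 1 at an unadjusted p under 0.05, *Slc16a7*. That gene encodes MCT2 and was counted at 2.67, 9.09 and 1.24 CPM in WT and at 23.1, 14.6 and 10.3 CPM in KO (log2 fold change 1.84, SE 0.81, unadjusted p = 0.045, edgeR adjusted p = 0.86). The groups did not overlap, and without the library labelled WT replicate 3 the log2 fold change was 1.43 (SE 0.74). The liver-type forms *Slc2a2* and *Pklr* had no count in any library. The muscle-type enolase *Eno3* averaged 19.8 CPM in WT and 10.3 CPM in KO, next to the muscle markers given above. With *Pgam2*, *Pygm*, *Slc2a4* and *Fbp2*, 5 muscle-type forms summed to 94.1, 75.5 and 87.2 CPM in WT. In KO they summed to 54.9, 65.2 and 38.4 CPM, and these sums did not overlap. Of the 5 forms 2 were tested, and both overlapped between the groups.

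No gene of the routes that leave or follow glycolysis passed the test. All 21 genes of the citric acid cycle overlapped between groups, with a median log2 fold change of -0.11. Of 8 pentose phosphate genes, 1 had an unadjusted p under 0.05, *Pgls*, the lactonase, at 139, 177 and 206 CPM in WT and 110.0, 104.8 and 135 CPM in KO (log2 fold change -0.58, SE 0.23, unadjusted p = 0.033, edgeR adjusted p = 0.80). Its highest value came from the library labelled WT replicate 3, without which the log2 fold change was -0.44 (SE 0.24, unadjusted p = 0.11 in edgeR). *Pgls* and *Rpe*, the epimerase of the same route, were lower in KO without overlap, *Rpe* by 0.20 on the log2 scale (SE 0.28). Of all genes, 6.25% were higher and 6.15% lower without overlap. None of 8 glycogen genes had an unadjusted p under 0.05, and their median log2 fold change was -0.06. *Pygl*, the liver-type glycogen phosphorylase, was the 1 glycogen gene without overlap, at 90.6, 113.6 and 72.9 CPM in WT and at 142, 124 and 114 CPM in KO (log2 fold change 0.46, SE 0.25, edgeR adjusted p = 0.94).

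Regulators of the pathway had 6 of 24 tested genes at an unadjusted p under 0.05, 4 higher and 2 lower, where 5.71% of all genes had one. Without overlap 4 were higher and 2 lower, where 6.25% and 6.15% of all genes were. The 4 higher genes are above that background, and the list was chosen with earlier results of these data known. *Myc*, which drives many glycolytic genes, was counted at 101.5, 110.5 and 219 CPM in WT and at 44.0, 73.9 and 77.9 CPM in KO. Its WT values were above all KO values, with the library labelled WT replicate 3 highest. The log2 fold change was -1.13 (SE 0.36, unadjusted p = 0.0093, edgeR adjusted p = 0.56), and without that library it was -0.70 (SE 0.31). *Mycn*, the family member with more counts in these cells, averaged 463 CPM in WT and 590.5 CPM in KO, a log2 difference of 0.35. *Mtor*, the growth kinase, was counted at 123, 116 and 146.5 CPM in WT and at 197, 198 and 187 CPM in KO (log2 fold change 0.60, SE 0.20, unadjusted p = 0.015, edgeR adjusted p = 0.68). The KO libraries lay close together, and all were above WT. *Meis1*, an HSC transcription factor (483 CPM in WT, 672.0 CPM in KO), and *Cited2*, a HIF inhibitor (240.5 and 476 CPM), were also among the 4 that were higher at an unadjusted p under 0.05, and both overlapped between the groups.

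Oxygen sensing was represented by *Hif1a*, whose product activates the pathway in hypoxia, and by the hydroxylases that mark it for degradation. *Hif1a* averaged 67.2 CPM in WT and 89.5 CPM in KO (log2 difference 0.41, unadjusted p = 0.45). *Egln3*, a hydroxylase that hypoxia itself induces, was counted at 28.1, 23.8 and 34.3 CPM in WT and at 45.4, 63.3 and 41.3 CPM in KO (log2 fold change 0.80, SE 0.35, unadjusted p = 0.043, edgeR adjusted p = 0.85). *Prkaa2*, an AMPK subunit prominent in muscle, was counted at 2.67, 12.4 and 10.5 CPM in WT and at 0.203, 1.64 and 0.607 CPM in KO. These values stand for 13, 101 and 34 counts in WT and for 1, 9 and 3 counts in KO. The fold change was -3.34 on the log2 scale (SE 1.14, interval -5.87 to -0.81, unadjusted p = 0.015, edgeR adjusted p = 0.67). With so few reads in KO, its size is poorly fixed. The muscle markers given above were also lower in the KO libraries, and their part was not tested. Of 16 other hypoxia-induced genes tested, *Ndrg1* was counted at 125, 112 and 137 CPM in WT and at 82.9, 66.1 and 80.9 CPM in KO (log2 fold change -0.70, SE 0.24, unadjusted p = 0.014, edgeR adjusted p = 0.66). The groups did not overlap there. The median log2 fold change of that list was -0.02. Without overlap, 2 of its genes were higher (*Egln3* and *P4ha1*) and 1 lower (*Ndrg1*) in KO, against 6.25% and 6.15% of all genes. The other 13 tested, *Bnip3*, *Ddit4* and *Kdm3a* included, overlapped.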

How the data were processed

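RNA of sorted HSCs was sequenced from 3 WT and 3 KO samples. The authors deposited whole-number read counts per gene, not normalized, with TopHat, HTSeq and mm10 named in the submitters' processing notes without versions. They also deposited FPKM values, which equal those counts divided by a fixed gene length and the library total to within 0.0703%. Strand use and the treatment of reads with several matches are not given in the sources used here. Totals were 3537269 to 8131344 counts, and 3 counts correspond to 0.369 to 0.927 CPM. No molecular identifiers are described, so counting error leaves out duplicated reads.

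Counts were filtered with filterByExpr, scaled by TMM and compared, KO against WT, with the quasi-likelihood test of edgeR 4.0.16 in R 4.3.3 (Benjamini-Hochberg adjustment at 0.05, 12513 genes). For genes taken singly, log2(CPM + 0.5) was compared by an exact two-sided permutation test, whose lowest possible p is 0.10. The procedure was tested on simulated data. Alternatives were DESeq2 1.42.0, limma 3.58.1 on log2 FPKM, other scaling and filters, a replicate block and left-out libraries. The length of merged exons was added after the data were seen.

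The 34 genes and all lists were chosen with earlier results of these data known. Genes were described in full if they had an adjusted or unadjusted p under 0.05, did not overlap between groups, or had the highest mean FPKM of their step; neighbours were named if they did not overlap and had an unadjusted p under 0.05 (at most 8). *Gapdh* and other genes named beyond this rule were chosen after their values were seen. Coordinates and shared windows of 50 bases were taken from GENCODE M21 (GRCm38, the build of mm10), in which 34267 of 34745 identifiers were found, and promoter sequence from RefSeq (GRCm38.p6), in which *Slc2a3* was not matched.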

Additional observations from a re-analysis of the deposited data

How the results depend on the processing

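None of the 34 genes was called under any of 15 alternatives, and the smallest adjusted p was 0.36, for *Pgam1* with DESeq2. Of all genes, 9 were called in edgeR, 149 with DESeq2, 15 by limma on log2(FPKM + 1) with a mean FPKM of at least 1, 5 with the replicate block, and 5 to 11 with libraries left out, 5 without WT replicate 1; the cause was not tested. The median log2 fold change of the pathway, -0.06, lay between -0.13 and 0.035 with libraries left out, and 0.035 came without WT replicate 1. Genes without overlap numbered 5 in the 6 libraries and 8 to 12 with fewer libraries, which overlap less by construction. Without WT replicate 2 there were 11 of the 34, 3 higher and 8 lower, where 11.2% of all genes were higher and 10.8% lower. The 8 lower genes are above that background, and they rest on leaving out that library. Without the library labelled WT replicate 3 there were 9, 4 higher and 5 lower (11.4 and 12.2% of all genes). Without replicate 3 of both groups there were 12, 7 higher and 5 lower (17.9 and 18.2%). The counts of these last settings are near the background. Of the 13 genes described in full, 2 changed sign with a library left out: *Hk1*, which ranged from -0.15 (without KO replicate 1) to 0.26, and *Pfkfb4*, from -0.21 (without WT replicate 1) to 0.59, with -0.16 without KO replicate 1 and -0.13 without KO replicate 2. The other 11 kept their sign in every alternative, but single libraries moved some by over 1.5 times: *Pdk1*, -0.59, was -0.34 without KO replicate 2; *Pdk3*, 0.42, was 0.25 without KO replicate 1; *Ldha*, -0.22, was -0.11 without WT replicate 1; *Slc2a1*, 0.35, was 0.20 without KO replicate 2; *Aldoa*, 0.10, was 0.02 without KO replicate 3 and 0.16 without KO replicate 2; *Pdhb* ranged from 0.03 to 0.47 and *Pgm2* from -0.40 to -0.07. Same-numbered WT and KO libraries correlated in their deviations from the group means at 0.17, 0.03 and 0.17, and WT replicate 2 correlated best with KO replicate 1 (0.04), so the replicate block rests on a shared number that, for replicate 3, also carries the female pattern of *Xist* and Y-linked genes.

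Depth limits the genes with few counts: intervals of *Pdk4*, *Pfkfb1*, *Gapdh*, *Eno2* and *Slc16a3* reach beyond 1 log2 unit on at least 1 side. Counts per gene do not separate splice forms, and *Med23* goes against the label of WT replicate 3, whereas the muscle markers of that library lie with the WT group.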

Other observations

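Markers of blood lineages gave a background for the pathway values, fitted in the same way. The 4 megakaryocyte and platelet genes looked up (*Pf4*, *Itga2b*, *Gp1ba* and *Ppbp*) summed to 197, 124 and 171 CPM in WT and to 329, 254 and 280 CPM in KO, without overlap. *Pfkp*, the platelet-type phosphofructokinase, was counted at 120, 76.2 and 41.7 CPM in WT and at 81.8, 87.2 and 91.3 CPM in KO, inside the WT range. *Prtn3*, a neutrophil granule protease, averaged 104 CPM in WT and 322 CPM in KO (log2 fold change 1.63, SE 0.25, edgeR adjusted p = 0.065), and it was the 1 gene without overlap among the 4 tested of 11 granulocyte and monocyte genes, which summed to 488, 649.5 and 634 CPM in WT and to 719, 774 and 1058 CPM in KO. These sums include *Prtn3*, which makes up much of their difference between the groups. By comparison the myeloid hexokinase *Hk3* differed by 0.06 on the log2 scale. Of 8 erythroid genes 4 were tested, all overlapping, with a median log2 fold change of -0.34, and of 7 lymphoid genes 1 was tested, *Cd79b*, at a log2 difference of 0.19 with overlap. *Cd34*, whose protein the sort excluded, averaged 333 CPM in WT and 439.5 CPM in KO, and *Cd48* had at most 28 counts in any library.

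Exons of 14 of the 34 genes overlap exons of another gene in GENCODE M21, and, if strand was not used, some of their reads cannot be told apart.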
